A study of Homo sapiens with 9 samples.

Results

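A set of 10 stress response genes was followed across 9 RNA sequencing libraries of HCT116 cells: ATF4, ATF3, DDIT3, TRIB3, CHAC1, SESN2, DDIT4, ASNS, HSPA5 and XBP1. They were chosen by name, as ATF4, its known partners and targets, and the chief reporters of the unfolded protein response. The choice was made with earlier results of these data known. They are 10 of the 33861 genes in the expression table. All 10 passed the filter on low counts, which 20988 genes passed. HCT116 is an established human colorectal cancer cell line. The study compared gene expression in 3 groups of 3 libraries. One group was labelled NC, the control, for which the labels state no duration. The group labelled Activin was exposed to activin A, a ligand of the transforming growth factor beta family, at 100 ng/mL for 5 days. The group labelled Activin+HGF had the same activin A exposure and then hepatocyte growth factor (HGF, the ligand of the MET receptor) at 20 ng/mL for a further 5 days. The sources do not say on which day the NC and Activin cells were collected, so HGF and the added days in culture cannot be told apart. Nor can activin be told apart from any difference in days in culture between NC and Activin. All libraries come from 1 cell line, and nothing states that the libraries of a group came from separate cultures, so the p-values below measure only the spread between these libraries, which may be technical.

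The integrated stress response begins when one of the eIF2 kinases phosphorylates the translation factor eIF2, which lowers protein synthesis in general and favours translation of the ATF4 mRNA. ATF4 is a transcription factor that raises genes for amino acid supply and, with DDIT3 (CHOP) and ATF3, genes that act when stress persists. The unfolded protein response is the part of this network that starts in the endoplasmic reticulum (ER): the kinase PERK (EIF2AK3) leads to ATF4, IRE1 (ERN1) splices the XBP1 mRNA, and ATF6 is released by proteolysis, and together they raise chaperones such as HSPA5 (BiP). Much of this control acts on translation, phosphorylation, splicing and cleavage, which a table of RNA per gene does not show.

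The promoter sequences of the 10 genes were searched for letters that ATF4 and the ER stress factors are known to bind, since the members were grouped by this pathway. RefSeq start sites on GRCh38.p14 gave 17 windows for the 10 genes, each from 250 bases before to 50 bases after a start, and all 10 genes matched. The first motif was the C/EBP-ATF response element, TGATGNAAN, searched on both strands. It lay in a window of 3 of the 10 genes, ASNS, ATF3 and CHAC1, against 4.45% of all 27305 genes (3.61% of 35116 windows). The 3 sites are shown in 30 bases each, 5′ to 3′ on the strand of the gene, with the motif in capitals. In ASNS (chr7:97872457-97872486, minus strand) the motif ran from 68 to 60 bases before the start. In ATF3 (chr1:212565206-212565235, plus strand) it ran from 191 to 183 bases before the more upstream of its RefSeq starts. In CHAC1 (chr15:40953251-40953280, plus strand) it ran from 210 to 202 bases before the start, with the motif on the opposite strand.
ASNS: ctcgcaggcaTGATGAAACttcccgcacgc
ATF3: aaggtcaggaTGATGGAAGgctgtcatatt
CHAC1: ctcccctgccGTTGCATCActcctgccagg

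The second motif was the ER stress response element, which is CCAAT, then 9 bases of any kind, then CCACG. It lay in a window of 2 of the 10 genes, HSPA5 and XBP1, against 0.0916% of all genes (25 of 27305), or 0.0769% of windows. The 250 bases before the start are shown for these 2 genes, because both transcripts rose and both carry the whole element. The capitals mark CCAAT and CCACG. In HSPA5 (chr9:125241344-125241593, minus strand) the element ran from 66 to 48 bases before the start, and in XBP1 (chr22:28800570-28800819, minus strand) from 52 to 34 bases before it.
HSPA5: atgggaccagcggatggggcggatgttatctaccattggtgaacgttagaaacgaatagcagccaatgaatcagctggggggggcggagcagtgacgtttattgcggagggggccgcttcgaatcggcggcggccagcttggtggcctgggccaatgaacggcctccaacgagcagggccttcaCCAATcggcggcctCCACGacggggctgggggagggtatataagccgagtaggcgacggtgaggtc
XBP1: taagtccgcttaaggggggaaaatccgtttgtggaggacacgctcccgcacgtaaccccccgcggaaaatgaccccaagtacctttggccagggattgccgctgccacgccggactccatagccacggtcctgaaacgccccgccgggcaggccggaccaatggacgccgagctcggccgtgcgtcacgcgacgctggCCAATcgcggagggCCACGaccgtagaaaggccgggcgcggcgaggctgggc
Of the other motifs searched, TGACGTCA (cyclic AMP response element, in 2.25% of all genes and 1.85% of windows) and TGACGTGG (in 0.927% and 0.729%) were in no window of the 10 genes. A match describes the letters only and is not a measured binding site. The 10 genes were chosen as known members of this pathway, so the shares over all genes are no test of enrichment.

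The libraries held 57453977 to 77016167 counts each. Levels are given below in CPM, the count of a gene scaled to the library's total, after scaling by trimmed mean of M values (TMM), whose factors ran from 0.783 in Activin+HGF library 1 to 1.17 in Activin library 1. The share of counts on mitochondrial genes was 20.1% at most in NC, 17.2% at most in Activin and 15.7% at most in Activin+HGF, with all NC libraries above all treated libraries, and its part in the results was not tested. Of the 8 epithelial markers, KRT19, KRT18, KRT8, EPCAM, CLDN7, CDH1 and CDX2 were detected in every library and VIL1 was at or near 0, with a summed level of 639 to 975 FPKM (a fragment count scaled to gene length and library total). Of 9 markers of immune, endothelial and stromal cells in the table, 3 to 5 stood at 0 in each library, PTPRC and CD3E among the lowest at 0.05 FPKM or less. Their summed level was 2.9 to 3.82 FPKM in NC, 10.1 to 13.1 in Activin and 8.61 to 11.1 in Activin+HGF, which came mostly from CD68, a lysosomal membrane protein, and COL1A1. In bulk RNA, a change in the number of cells of a kind and a change in RNA per cell cannot be told apart.

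The first comparison asked what activin exposure did to the stress response transcripts. DDIT3, CHAC1, ATF3, TRIB3, DDIT4, SESN2, HSPA5, ASNS and XBP1 were all higher in Activin than in NC, by 3.66-fold for XBP1 to 37.3-fold for DDIT3. ATF4 did not pass the test. The calls are those of edgeR's quasi-likelihood test at a Benjamini-Hochberg adjusted p under 0.05 over all 20988 genes, and they covered 9 of the 10 genes, where 9.58% of all genes tested were called higher. The median log2 fold change was 3.16 over the 10 genes and 0.02 over all genes. The lowest Activin library lay above the highest NC library for all 10 genes, a separation that 20.9% of all genes tested showed.

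**Figure D1:**
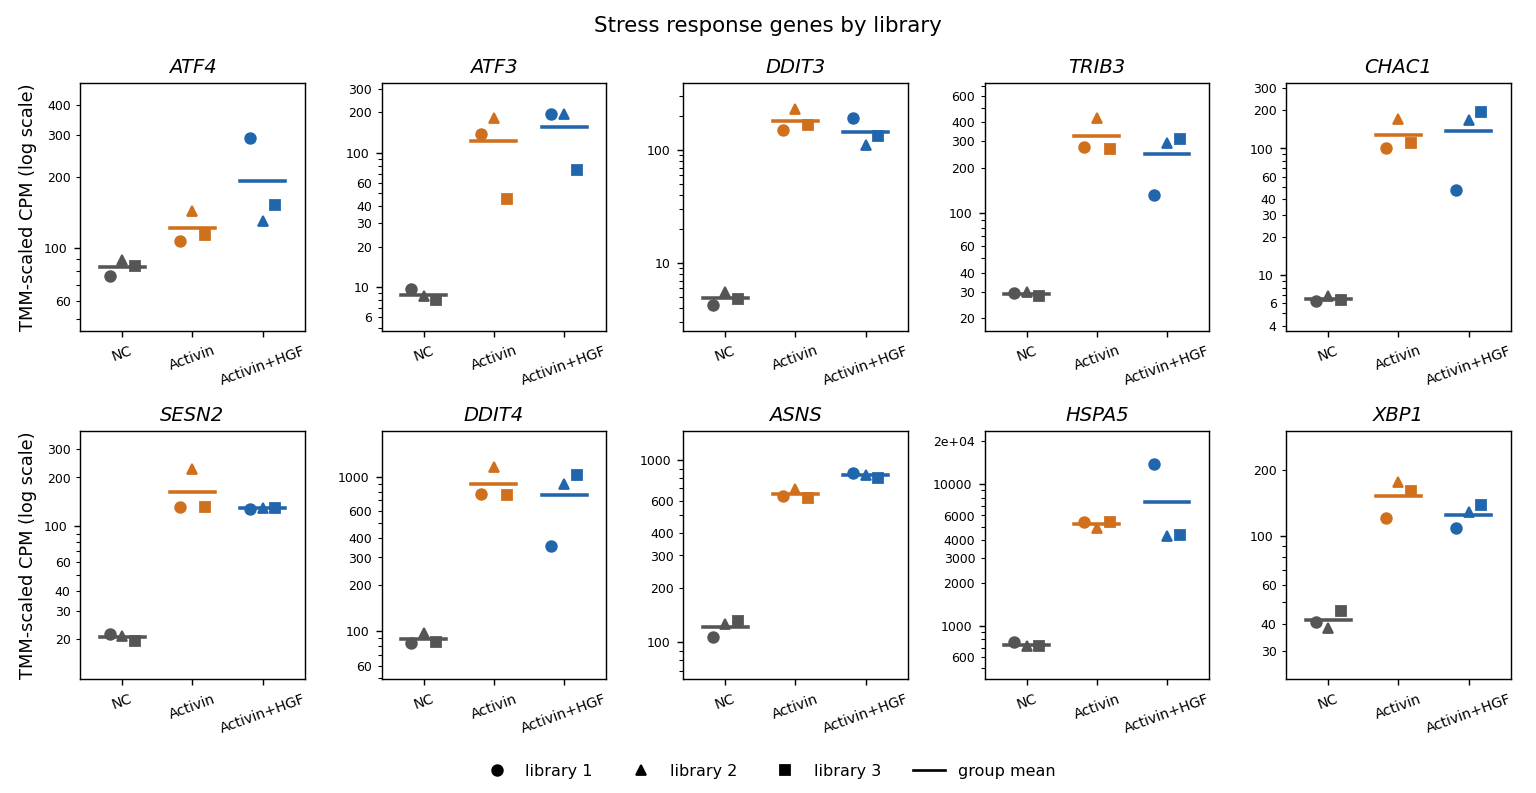
Level of each of the 10 genes in each library, as TMM-scaled CPM on a log scale, with symbols for libraries 1 to 3 and a line at the mean of each group (n = 3). Every treated library lies above every NC library in all 10 panels, while within Activin+HGF library 1 lies far above the other libraries for HSPA5 and ATF4 and far below them for CHAC1, TRIB3 and DDIT4.

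The transcription factors come first. ATF4 (ENSG00000128272, chr22:39519672-39522683, plus strand) had 76.3, 88.6 and 83.6 CPM in the NC libraries, 107, 143 and 114 CPM in the Activin libraries and 291, 130 and 152 CPM in the Activin+HGF libraries. The groups NC and Activin did not overlap, but the log2 fold change was 0.55 with a standard error (SE) of 0.277 and an adjusted p of 0.208. A fit of NC and Activin alone gave 0.56 with an adjusted p of 0.0477. ATF4 had the smallest difference of the 10 genes in this comparison.

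DDIT3, which encodes the factor CHOP (ENSG00000175197, chr12:57516588-57521737, minus strand), had 4.30, 5.56 and 4.85 CPM in NC, 150, 232 and 167 CPM in Activin and 194, 112 and 133 CPM in Activin+HGF. It had the largest fold of the 10 genes and ranked 9 by p among all genes tested. Its log2 fold change for Activin against NC was 5.22 (SE 0.287, adjusted p = 6.77e-06). DDIT3 shares 982 bases with MARS and 1028 bases with MBD6 on the opposite strand, and no source used here says that counting used the strand. MARS had a mean level of 26.7 FPKM in NC, 39.2 in Activin and 26.5 in Activin+HGF, and MBD6 4.69, 10.3 and 8.26 FPKM.

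ATF3, a stress-induced repressor and activator of the same protein family (ENSG00000162772, chr1:212565334-212620772, plus strand), had 9.69, 8.57 and 8.06 CPM in NC, 137, 182 and 45.1 CPM in Activin and 194, 193 and 75.0 CPM in Activin+HGF. Library 3 was the low one in both treated groups, 3.51-fold and 2.58-fold below the mean (log scale) of the other 2 libraries. The log2 fold change for Activin against NC was 3.79 (SE 0.517, adjusted p = 0.000993). XBP1 (ENSG00000100219, chr22:28794555-28800597, minus strand), whose mRNA is spliced by IRE1, had 40.6, 38.2 and 45.8 CPM in NC, 121, 176 and 160 CPM in Activin and 108, 129 and 138 CPM in Activin+HGF. Its rise in Activin was the smallest of the 9 that passed the test, at 1.87 (SE 0.190, adjusted p = 0.000194). The table sums the transcripts of a gene, so the spliced and unspliced forms are not separated.

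The 4 genes known as feedback or growth-limiting targets of the pathway rose in Activin by 2.99 to 4.29 on the log2 scale. TRIB3 (ENSG00000101255, chr20:362835-397559, plus strand), a pseudokinase that binds ATF4 and AKT, had 29.2, 29.9 and 28.1 CPM in NC, 275, 429 and 265 CPM in Activin and 132, 292 and 312 CPM in Activin+HGF. CHAC1 (ENSG00000128965, chr15:40952962-40956512, plus strand), which degrades glutathione, had 6.22, 6.86 and 6.40 CPM in NC, 100, 170 and 110 CPM in Activin and 46.7, 168 and 193 CPM in Activin+HGF. In both genes Activin library 2 was the highest of its group and Activin+HGF library 1 the lowest of its group. The log2 fold changes for Activin against NC were 3.47 (SE 0.334, adjusted p = 0.000162) for TRIB3 and 4.29 (SE 0.480, adjusted p = 0.000331) for CHAC1.

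SESN2 (ENSG00000130766, chr1:28259518-28282491, plus strand), a leucine sensor that restrains mTORC1, had 21.7, 20.9 and 19.4 CPM in NC, 132, 227 and 132 CPM in Activin and 128, 130 and 129 CPM in Activin+HGF. DDIT4, or REDD1 (ENSG00000168209, chr10:72273924-72276036, plus strand), another inhibitor of mTORC1 that is also induced by hypoxia and glucocorticoids, had 84.0, 97.6 and 85.2 CPM in NC, 775, 1154 and 761 CPM in Activin and 354, 891 and 1018 CPM in Activin+HGF. SESN2 was nearly even within Activin+HGF, where DDIT4 varied 2.87-fold. The log2 fold changes for Activin against NC were 2.99 (SE 0.231, adjusted p = 4.20e-05) for SESN2 and 3.33 (SE 0.363, adjusted p = 0.000288) for DDIT4.

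ASNS, asparagine synthetase (ENSG00000070669, chr7:97851677-97872542, minus strand), had 107, 126 and 131 CPM in NC, 634, 692 and 620 CPM in Activin and 850, 834 and 802 CPM in Activin+HGF. It was, with HSPA5, the most even of the 10 genes within Activin, and its rise in Activin was 2.42 on the log2 scale (SE 0.151, adjusted p = 1.20e-05). A same-strand transcript, AC079781.5, spans 20855 bases of the gene and stood at a mean of 2.68, 4.72 and 2.31 FPKM in NC, Activin and Activin+HGF. HSPA5, the ER chaperone BiP (ENSG00000044574, chr9:125234853-125241343, minus strand), had 762, 719 and 720 CPM in NC, 5404, 4852 and 5388 CPM in Activin and 13859, 4303 and 4335 CPM in Activin+HGF. In Activin+HGF library 1 it took 1.08% of all counts, against 0.0740% to 0.0812% in NC and 0.479% to 0.630% in Activin. The log2 fold change of HSPA5 for Activin against NC was 2.83 (SE 0.408, adjusted p = 0.00129), with an SE that draws on all 3 groups. The edgeR fit of NC and Activin alone gave HSPA5 2.84 (SE 0.132, adjusted p = 8.40e-05). In that fit the SE rose for ASNS and SESN2, to 0.152 and 0.251, and fell for the rest of the 10 genes.

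**Figure D2:**
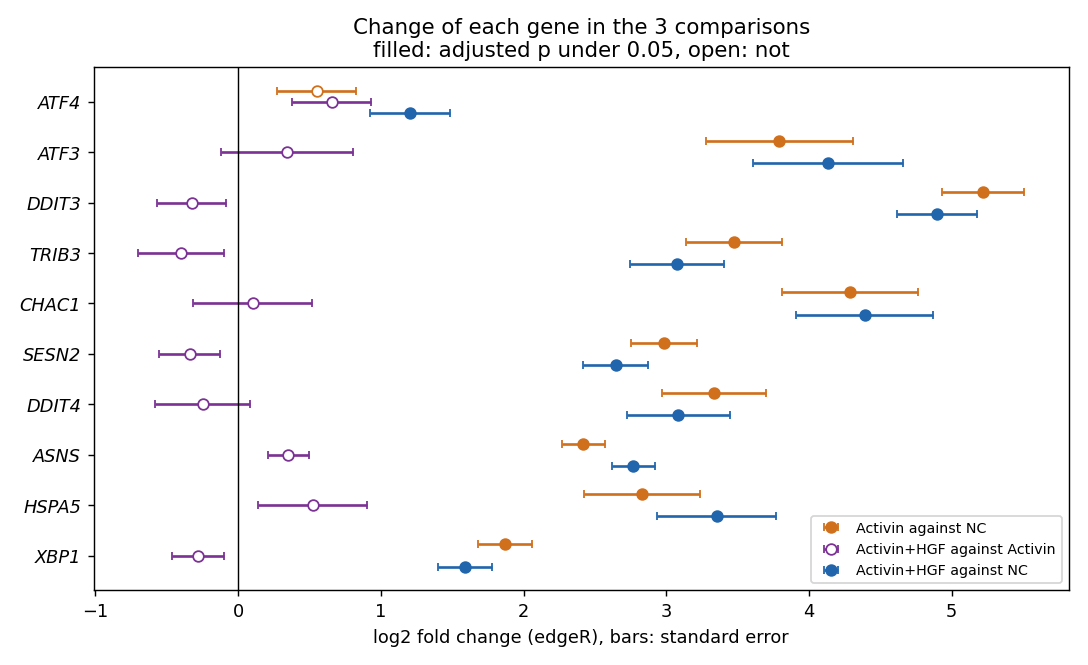
Log2 fold change of each of the 10 genes in the 3 comparisons from the edgeR fit, with bars of 1 SE, filled where the adjusted p was under 0.05 and open where it was not. For Activin against NC 9 of the 10 points are filled, for Activin+HGF against NC all 10 are filled, and for Activin+HGF against Activin all 10 are open and lie between -0.40 and 0.66.

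The second comparison asked what HGF after activin added to activin alone. None of the 10 genes passed edgeR's test, where 12.9% of all genes tested did, and log2 fold changes ran from -0.40 for TRIB3 to 0.66 for ATF4. At an unadjusted p under 0.05, 2 of the 10 would pass, ATF4 and ASNS, while DESeq2 called 0 of the 10, and limma on FPKM called 3, namely DDIT3, SESN2 and XBP1, all lower. The ASNS groups did not overlap, with Activin+HGF higher, and the SESN2 groups did not overlap, with Activin+HGF lower, which 17.2% and 15.6% of all genes tested showed. The log2 fold change was 0.35 for ASNS (SE 0.143, adjusted p = 0.128) and -0.34 for SESN2 (SE 0.214, adjusted p = 0.319).

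The sign of this comparison depended on scaling for several genes. Scaling by library totals moved the median of all genes for Activin+HGF against Activin from -0.04 to -0.38 on the log2 scale, and with FPKM and a pseudocount of 0.1 that median was -0.31. Scaled by library totals, DDIT3 stood at -0.68 (adjusted p = 0.0376) and SESN2 at -0.66 (adjusted p = 0.0387), which passed the test, ASNS stood at 0.01 and CHAC1 at -0.17. In FPKM, the deposited unit, ASNS had means of 126 and 124 and HSPA5 1269 and 1337 in Activin and Activin+HGF. Without Activin+HGF library 1 the HSPA5 value turned from 0.52 (SE 0.382, adjusted p = 0.392) to -0.27 (adjusted p = 0.225), and DDIT4 turned from -0.25 to 0.09, while ATF4 came to 0.22 in place of 0.66.

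The third comparison set the sequential treatment against NC, and it shares its NC libraries with the first and its Activin+HGF libraries with the second. All 10 genes were higher in Activin+HGF, where 16.4% of all genes tested were called higher, and no Activin+HGF library overlapped the NC libraries for any of the 10, where 25.7% of all genes tested were separated in that direction. The folds ran from 2.31-fold for ATF4 to 29.8-fold for DDIT3, with a median log2 fold change of 3.08 against -0.03 over all genes. ATF4, which did not pass the test in Activin against NC, stood at 1.21 here (SE 0.280, adjusted p = 0.00884). Without Activin+HGF library 1, in which ATF4 was highest, its value was 0.77 (adjusted p = 0.0119), that of HSPA5 was 2.56 in place of 3.35, and all 10 genes still passed. The remaining log2 fold changes were 4.90 for DDIT3, 4.39 for CHAC1, 4.14 for ATF3, 3.08 for DDIT4, 3.08 for TRIB3, 2.77 for ASNS, 2.65 for SESN2 and 1.59 for XBP1, with adjusted p-values from 5.65e-06 for ASNS to 0.000371 for ATF3.

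The 10 genes did not vary alike among the libraries of a treated group. In NC the highest library exceeded the lowest by 1.06-fold for HSPA5 to 1.29-fold for DDIT3. In Activin the ratio reached 4.04-fold for ATF3. In CPM, Activin library 2 was the highest of its group for 9 of the 10 genes, and for 41.9% of all genes tested. The exception was HSPA5, where library 2 was the lowest. In FPKM, library 2 was also the lowest for ASNS (130, 121 and 126 in libraries 1 to 3). Nor was it the highest there for XBP1 (40.1, 49.7 and 52.3). In Activin+HGF the ratio was 1.01-fold for SESN2 and 1.06-fold for ASNS but 3.22-fold for HSPA5 and 4.13-fold for CHAC1. For comparison, the median ratio over other genes was 1.19 in NC, 1.53 in Activin and 1.41 in Activin+HGF. That median was taken over the tested genes with a mean of at least 1 FPKM over all libraries, the 10 among them.

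In CPM, Activin+HGF library 1 was the highest of its group for 5 of the 10 genes and the lowest for the other 5. In it HSPA5 was 3.21-fold and ATF4 2.07-fold above the mean (log scale) of the other 2 libraries. CHAC1 was 3.86-fold, DDIT4 2.69-fold and TRIB3 2.29-fold below it. ASNS and SESN2 were within 1.04-fold of it. In the same library, 16 of 18 ER chaperones and folding enzymes lay above both other libraries and none below both (median log2 difference 0.35, HSP90B1 0.87), and 6 of 8 amino acid transporters lay below both and 2 above (median -0.71). Of 7 partner transcription factors of ATF4, 5 lay below both and 2 above (median -0.74). Other lists were more mixed. Of 17 genes of ER-associated degradation and translocation, 9 lay above both and 6 below both. These numbers were 6 and 7 for 14 other targets of ATF4 and DDIT3, and 5 and 8 for 14 genes of eIF2 and its regulators. Of all genes tested, 39.3% lay above both and 39.8% below both. Over all genes tested, 20.6% differed at least 2-fold from the other libraries in Activin+HGF library 1, against 6.76% to 19.1% in the other 8 libraries. This library also had the lowest TMM factor, 0.783 against 0.926 and 0.899 in libraries 2 and 3 of its group. That factor raised its CPM relative to theirs. In FPKM, which carries no TMM factor, library 1 was the lowest for ASNS (114 against 133 and 124). It was also the lowest there for SESN2 (24.3 against 29.3 and 28.3) and not the highest for ATF3 (31.5 against 37.3 and 14.1). How far the factor or this library's wider differences account for the other values was not tested.

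**Figure D3:**
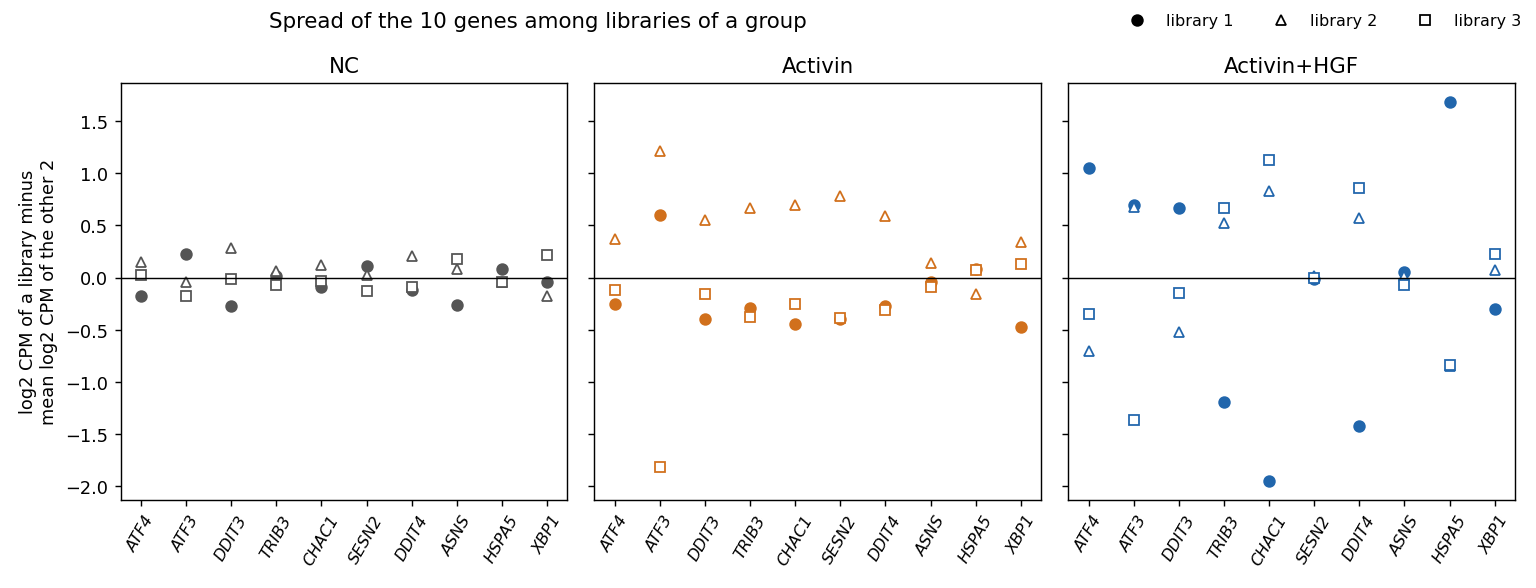
Log2 CPM of each library minus the mean log2 CPM of the other 2 libraries of its group, for the 10 genes, with filled circles for library 1. NC libraries stay near 0, Activin library 2 lies above 0 for 9 of 10 genes, and in Activin+HGF library 1 HSPA5 and ATF4 lie high while CHAC1, DDIT4 and TRIB3 lie low.

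Levels between genes were compared per length, in FPKM. In NC the order of mean levels was HSPA5 at 168 ± 9.43 FPKM (SD, n = 3), DDIT4 at 38.8 ± 2.50, ATF4 at 25.5 ± 1.31, ASNS at 22.2 ± 1.96, XBP1 at 12.3 ± 1.24, TRIB3 at 8.61 ± 0.282, SESN2 at 5.36 ± 0.371, DDIT3 at 3.34 ± 0.356, CHAC1 at 2.83 ± 0.0839 and ATF3 at 1.94 ± 0.225. No neighbours in that order overlapped in their libraries. ATF4 ranked 3 in NC, and the 4 lowest levels were those of SESN2, DDIT3, CHAC1 and ATF3.

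In Activin the order in FPKM changed below the top 2 genes, and ATF4 stood at rank 9. HSPA5 had 1269 ± 183 FPKM (SD, n = 3) and DDIT4 409 ± 62.3. They were followed by DDIT3 at 131 ± 18.5, ASNS at 126 ± 4.74 and TRIB3 at 99.8 ± 18.7, which overlapped in a chain, and by CHAC1 at 57.7 ± 11.6, XBP1 at 47.4 ± 6.43, SESN2 at 44.1 ± 10.4, ATF4 at 39.2 ± 2.53 and ATF3 at 27.9 ± 14.8, which also overlapped from neighbour to neighbour. In Activin+HGF the levels were 1337 ± 848 FPKM (SD, n = 3) for HSPA5, 276 ± 142 for DDIT4, 124 ± 9.56 for ASNS, 80.3 ± 15.5 for DDIT3, 60.6 ± 27.8 for TRIB3, 50.1 ± 30.7 for CHAC1, 46.7 ± 16.6 for ATF4, 30.4 ± 6.09 for XBP1, 27.6 ± 12.1 for ATF3 and 27.3 ± 2.66 for SESN2. There HSPA5 stood apart from DDIT4, ASNS from DDIT3, and ATF4 from XBP1, and the other neighbours overlapped.

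The genes around the 10 were grouped in 10 lists, 108 distinct genes in all. The lists came from general knowledge of the pathway, with earlier results of these data known. They are described by counts and medians beside the share of all genes called. For Activin against NC, 9.58% of all genes tested were called higher and 8.41% lower, for Activin+HGF against Activin 7.41% and 5.45%, and for Activin+HGF against NC 16.4% and 15.0%. Upstream of ATF4 stand the eIF2 kinases, eIF2, its exchange factor eIF2B and the eIF2 phosphatase cofactors, 14 genes in all. For Activin against NC 6 of the 14 were lower and 1 was higher, with a median log2 fold change of -0.47. In a fit of Activin and Activin+HGF alone, the list genes called between these groups came to 0 in the eIF2, partner, synthesis, other target and p53 lists and to 1 in the hypoxia list, so the calls between them given here for those lists rest on the fit of all 3 groups.

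Among the 4 eIF2 kinases, the log2 fold change for Activin against NC was -0.95 (adjusted p = 0.00247) for EIF2AK1, the heme-regulated kinase, -0.76 (adjusted p = 0.0330) for EIF2AK4, or GCN2, which senses amino acid shortage, -0.41 (adjusted p = 0.247) for EIF2AK2, or PKR, which senses double-stranded RNA, and 0.36 (adjusted p = 0.311) for EIF2AK3, or PERK. EIF2S1, which carries the phosphorylated serine of eIF2, fell by 0.94 on the log2 scale (adjusted p = 0.00440). EIF2B1 and EIF2B5, subunits of the exchange factor, fell by 1.01 and 1.03 on the log2 scale, and EIF2B4 fell by 0.70. The calls of EIF2AK4 and EIF2B4 were both lost without Activin library 3 or any 1 of the 3 NC libraries, and that of EIF2B4 also without Activin library 1. EIF2B3 at -0.50, EIF2B2 at -0.44, EIF2S2 at -0.43 and EIF2S3 at -0.36 did not pass the test. Against NC, 7 of the 14 were lower in Activin+HGF and 2 were higher. EIF2B1 fell the most, at -1.18 (adjusted p = 0.000711). EIF2AK1 at -0.77, EIF2AK2 at -1.14 and EIF2AK4 at -0.79 were also among the lower. The call of EIF2AK4 was lost without Activin+HGF library 1 or NC library 1 or 3.

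The gene of the list that rose in Activin was PPP1R15A (GADD34), the cofactor that directs the dephosphorylation of eIF2 and a known target of ATF4 and DDIT3. PPP1R15A had 44.6, 52.7 and 46.9 CPM in NC, 387, 634 and 392 CPM in Activin and 337, 218 and 238 CPM in Activin+HGF. It rose by 3.29 on the log2 scale in Activin (adjusted p = 4.20e-05) and was lower in Activin+HGF than in Activin, at -0.83 (adjusted p = 0.0445). That second call was lost without a low-count filter, with a replicate block, in the fit of the 2 groups alone, and without Activin library 1 or 2 or Activin+HGF library 2 or 3. Its constitutive relative PPP1R15B stood at 0.61 in Activin (adjusted p = 0.0900) and at 1.37 in Activin+HGF against NC (adjusted p = 0.00171).

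Of the 7 ER stress sensors and ATF6 proteases, 1 was higher in Activin than in NC and none was lower. That gene was ERN1, or IRE1, which had 17.9, 19.5 and 18.6 CPM in NC, 82.0, 73.8 and 70.1 CPM in Activin and 84.3, 77.4 and 75.6 CPM in Activin+HGF, a log2 fold change of 2.01 in Activin (SE 0.154, adjusted p = 4.18e-05). ATF6 stood at 0.61 (adjusted p = 0.0529), ATF6B at 0.20, MBTPS1 at 0.07, MBTPS2 at -0.03 and ERN2 at -0.10, none of which passed, and without Activin library 2 the count was 3. ATF6B was the 1 sensor called between Activin+HGF and Activin, at -1.05 (adjusted p = 0.0117). In Activin+HGF against NC 1 of the 7 was higher, ERN1 at 2.08 (adjusted p = 2.34e-05). ATF6B was the 1 that was lower there, at -0.85 (adjusted p = 0.00937).

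**Figure D4:**
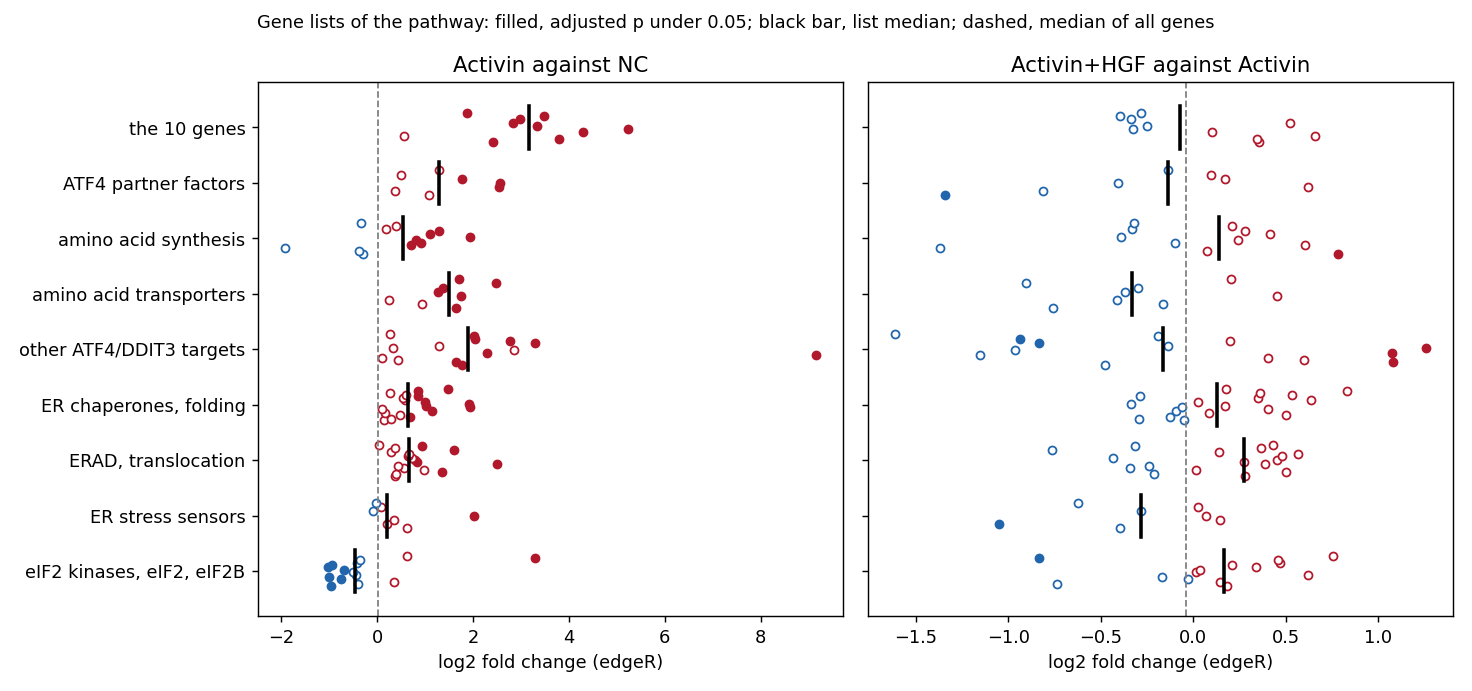
Log2 fold changes of the 10 genes and of the genes of 8 pathway lists for Activin against NC (left) and Activin+HGF against Activin (right), red for higher and blue for lower, filled where the adjusted p was under 0.05, with a black bar at the median of each list and a dashed line at the median of all genes. In the left panel the median of the 10 genes is 3.16 and that of the eIF2 list -0.47, and the point at 9.16 is FGF21, which had no counts in NC, so that its fitted value depends on the fit's prior count.

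Of the 7 partner transcription factors of ATF4, 3 were higher in Activin than in NC and none lower, with a list median of 1.30. The 3 were the C/EBP family members CEBPD at 2.57 (adjusted p = 0.000940), CEBPB at 2.55 (adjusted p = 0.000315) and CEBPG at 1.78 (adjusted p = 0.000162). CEBPB, whose product pairs with ATF4 and with CHOP, had 19.1, 28.8 and 26.4 CPM in NC, 121, 188 and 125 CPM in Activin and 150, 241 and 275 CPM in Activin+HGF. The same 3 genes were called in Activin+HGF against NC, at 2.17, 3.17 and 1.95. ATF5, a close relative of ATF4, was lower in Activin+HGF than in Activin, at -1.34 (adjusted p = 0.0304), and the list had none called there without any 1 of the 3 Activin libraries or without Activin+HGF library 2.

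Among the amino acid genes, 6 of 12 synthesis genes and 6 of 8 transporters were higher in Activin than in NC and none was lower, with medians of 0.54 and 1.50. Without NC library 3 the synthesis genes called came to 3. PCK2, the mitochondrial phosphoenolpyruvate carboxykinase, stood at 1.93 (adjusted p = 0.00699), and the serine synthesis enzymes PSAT1 and PHGDH at 1.29 (adjusted p = 0.00140) and 1.10 (adjusted p = 0.00949). Of the transporters, the cystine exchanger SLC7A11 stood at 2.48 (adjusted p = 0.000388), its heavy chain SLC3A2 at 1.75 (adjusted p = 0.000326) and the leucine exchanger SLC7A5 at 1.71 (adjusted p = 0.000824). In Activin+HGF 8 of 12 synthesis genes and 4 of 8 transporters were higher than in NC, and without Activin+HGF library 1 the counts were 6 and 6. ALDH18A1, of proline synthesis, was the 1 synthesis gene called between Activin+HGF and Activin, at 0.78 (adjusted p = 0.0163), a count that was 0 without Activin library 1 or 3 and 3 without Activin library 2, and none of the 8 transporters was called by edgeR, where 3 had an unadjusted p under 0.05, DESeq2 called 1 and limma 3.

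Of 14 other targets of ATF4 and DDIT3, 8 were higher in Activin than in NC and none lower, with a median of 1.89. Beside PPP1R15A, the secreted factors STC2 and GDF15 stood at 2.77 (adjusted p = 6.59e-06) and 2.29 (adjusted p = 0.000149). FGF21, another secreted target, had 0 counts in the NC libraries and was at least 24.2-fold higher in Activin, against a floor of 3 counts per NC library, and the list's median was 1.89 also with FGF21 at that bound. Between Activin+HGF and Activin 3 of the 14 were higher and 2 lower. GDF15 had 122, 143 and 133 CPM in NC, 529, 886 and 532 CPM in Activin and 1308, 1362 and 1432 CPM in Activin+HGF, and rose again after HGF by 1.07 on the log2 scale (adjusted p = 0.0123). The apoptosis gene BBC3 (PUMA) and KLHL24 were the others that were higher, at 1.08 (adjusted p = 0.0235) and 1.26 (adjusted p = 0.0290). Without Activin library 1 the 5 calls of this list came to 1, and without Activin library 3 or Activin+HGF library 1 to 3. The call of GDF15 was lost without Activin library 1, and those of BBC3 and KLHL24 without Activin library 1 or 3 or Activin+HGF library 1, and for KLHL24 also without Activin library 2.

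In the ER, 9 of 18 chaperones and folding enzymes and 7 of 17 genes of ER-associated degradation and translocation were higher in Activin than in NC, and none was lower, with medians of 0.65 and 0.67. Without NC library 3 the counts were 4 and 3, and without NC library 2 the chaperones came to 5. ERO1B, an ER oxidase, stood at 1.94 (adjusted p = 0.000176), HYOU1, a large relative of the Hsp70 chaperones, at 1.91 (adjusted p = 0.000288) and SIL1, the nucleotide exchange factor of BiP, at 1.47 (adjusted p = 0.000551). HERPUD1, a component of the degradation complex, had 34.9, 36.1 and 30.7 CPM in NC, 197, 174 and 200 CPM in Activin and 380, 144 and 223 CPM in Activin+HGF, and stood at 2.49 in Activin (adjusted p = 0.000526). SEL1L, of the same complex, stood at 1.60 (adjusted p = 0.00211) and DNAJB9, a co-chaperone of BiP, at 1.36 (adjusted p = 0.00192). In Activin+HGF 14 of 18 and 11 of 17 were higher than in NC, and 11 and 10 without Activin+HGF library 1. SDF2L1, at 1.67 (adjusted p = 0.00101), and SEC24D, a coat protein of vesicles leaving the ER, at 1.24 (adjusted p = 0.000659), were among them. In Activin+HGF against Activin edgeR called none of either list, where 4 and 5 had an unadjusted p under 0.05, DESeq2 called 2 and 1, and limma 4 and 3.

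SESN2 and DDIT4 also belong to other programmes, so targets of p53 and of hypoxia were counted beside them. Of 8 p53 targets, 2 were higher in Activin than in NC and none lower, with a median of -0.15. They were GDF15 and CDKN1A (p21), at 1.17 (adjusted p = 0.00303). In Activin+HGF against NC 3 of the 8 were higher and 1 was lower, with a median of -0.05. ZMAT3 was among the higher, at 1.60 (adjusted p = 0.00902), and MDM2 was the lower, at -0.54. The call of MDM2 was lost without NC library 1, 2 or 3 or Activin+HGF library 1 or 3. Of 8 hypoxia targets, 5 were higher in Activin than in NC and none lower, with a median of 1.40, and 3 were called without NC library 3. NDRG1 stood at 3.24 (adjusted p = 3.81e-05), VEGFA, also among the ATF4 targets, at 2.01 (adjusted p = 0.000235) and ANKRD37 at 1.86 (adjusted p = 0.00173). In Activin+HGF against NC 3 of the 8 hypoxia targets were higher and 1 was lower, with a median of 0.43. Between Activin+HGF and Activin, 3 of the 8 hypoxia targets were lower and 1 was higher. CA9 stood at -1.98 (adjusted p = 0.0143) and PFKFB4 at -1.26 (adjusted p = 0.0157). ANKRD37 stood at -1.25 (adjusted p = 0.0190), a call lost without Activin+HGF library 3. ADM was higher, at 1.72 (adjusted p = 0.0147), with 139, 53.2 and 52.4 CPM in Activin+HGF. Without Activin+HGF library 1 ADM stood at 1.10 (adjusted p = 0.0144), and its call was lost without Activin library 1 or 3.

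Across the 9 libraries, the genes whose log2 CPM most resembled that of ATF4 among the 12071 genes searched were BRD2, CYTH1 and CCN1, with Pearson's r of 0.990, 0.987 and 0.986. For HSPA5 they were HERPUD1, YWHAH and ING1, with r of 0.989, 0.988 and 0.988. These values describe likeness only, since the 9 points fall into 3 groups and the genes share libraries and scaling. The mean level of BRD2 was 221 CPM in NC, 365 in Activin and 763 in Activin+HGF.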

How the data were processed

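RNA sequencing was done by the authors on ribosome-depleted RNA of 9 HCT116 libraries, 3 each of NC, Activin and Activin+HGF. The deposited table holds raw counts and FPKM per gene and library, with no depth correction in the counts. The submitters' processing notes name cutadapt 1.9, HISAT2 2.0.4 and StringTie 1.3.4d, and the settings and annotation are not given in the sources used here. The coordinates match GRCh38, since 60.2% of 32930 genes shared start and end with GENCODE 29. Of the counts from 1 to 40, 35.0% were multiples of 4 (25% if even), so 1 count need not be 1 fragment.

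Counts of all genes were fitted together in edgeR 4.0.16 (R 4.3.3, filterByExpr, TMM, quasi-likelihood test) with no covariate, and a gene counted as called where its p after Benjamini-Hochberg adjustment was under 0.05. Alternatives used DESeq2 1.42.0, limma 3.58.1, other scalings, filters, call rules and counts divided by 4, and left out each library in turn. The limma fits used log2(FPKM + 0.1) and log2(FPKM + 1) for genes with at least 0.5 FPKM in at least 3 libraries. On simulated counts for Activin against NC (20988 genes, 200 changed by 2 on the log2 scale), 83% of changed genes were recovered. Of the calls made there, 6.74% fell on unchanged genes. The simulation gave each gene the same spread in every group and drew the changed genes from those above a minimum level. In the data the median ratio of highest to lowest library was 1.19 in NC, 1.53 in Activin and 1.41 in Activin+HGF. These simulated shares therefore need not hold for the data. The 10 genes were named in every comparison. All genes of the eIF2 and sensor lists were named for Activin against NC, and only some of them for the other comparisons. In each other list and comparison the genes named came from the up to 3 called genes that changed most and averaged 1 FPKM or more in a group. HSP90B1, FGF21, MDM2, MARS, MBD6 and AC079781.5 were added with their values known, as was ANKRD37 for Activin+HGF against Activin. The members and lists were chosen with earlier results of these data known. DERL3 and LUM were not analysed here. Promoter sequences are those of RefSeq on GRCh38.p14.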

Additional observations from a re-analysis of the deposited data

How the results depend on the processing

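The calls of the 10 genes in Activin against NC stayed on the same side of the threshold in 99 of 100 gene and alternative pairs and in all 60 that left out a library, the exception being ATF4 in the fit of the 2 groups alone. In Activin+HGF against NC all 100 and all 60 did. In Activin+HGF against Activin 8 of 100 changed sign and 8 came to pass the test. The libraries held 57453977 to 77016167 counts, and whether depth or the number of libraries, 3 a group, set the error was not tested.

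The replicate numbers of the titles did not pair the libraries (deviations of same-numbered libraries had r of -0.056 to 0.079 in 9 pairs, others -0.075 to 0.10). A replicate block in the fit left 9, 0 and 10 of the 10 genes called in the 3 comparisons, turned CHAC1 to -0.017 for Activin+HGF against Activin, and gave 0 in place of 1 for the eIF2 list there; it changed no other count by over 1.5 times.

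Between Activin+HGF and Activin, limma with a pseudocount of 0.1 and of 1 called 3 of the 10 genes each and turned ASNS to -0.025 and -0.025, CHAC1 to -0.48 and -0.46, and HSPA5 to -0.088 and -0.088. Library totals called 2 of the 10 and turned CHAC1 to -0.17. With a library left out, 0 to 1 of the 10 were called (ASNS without Activin library 2, 0.40, adjusted p = 0.0472), and values ran from -0.13 to 0.76 for ATF3, turned without Activin library 3, from -0.24 to 0.52 for CHAC1, from -0.53 to 0.094 for DDIT4, turned without Activin+HGF library 1, and from -0.27 to 0.80 for HSPA5. The cause of these changes was not tested.

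Counts of list genes called moved by over 1.5 times as follows. For Activin against NC, a fold of at least 2 gave 3 eIF2, 3 synthesis and 3 ER degradation genes. An adjusted p under 0.01 gave 4 chaperone, 3 degradation and 3 hypoxia genes. DESeq2's size factors, upper-quartile factors, DESeq2 itself and counts divided by 4 gave 2 sensors each, DESeq2 and counts divided by 4 gave 5 partner factors each, and DESeq2 and both limma fits gave 11 degradation genes each. Between Activin+HGF and Activin, a fold of at least 2 gave 0 eIF2, 0 synthesis and 3 other targets. An adjusted p under 0.01 gave 0 genes in the eIF2, sensor, partner, synthesis, other target, p53 and hypoxia lists. The fit of the 2 groups alone gave 0 in the eIF2, partner, synthesis, other target and p53 lists and 1 hypoxia gene. No filter gave 0 eIF2 genes. Upper-quartile factors gave 2 eIF2 genes and 1 transporter, and DESeq2's size factors 2 synthesis genes. DESeq2 gave 3 eIF2, 2 synthesis, 1 transporter, 2 chaperone and 1 degradation genes. Counts divided by 4 gave 2 eIF2, 2 synthesis, 1 transporter and 1 chaperone genes. Each limma fit gave 2 eIF2, 3 transporter, 4 chaperone, 3 degradation and 2 p53 genes, and with a pseudocount of 1 also 7 hypoxia genes. Library totals gave 2 eIF2, 0 synthesis, 1 transporter, 3 chaperone and 2 degradation genes. For Activin+HGF against NC, a fold of at least 2 gave 4 eIF2, 1 sensor, 5 synthesis, 9 chaperone and 6 degradation genes. An adjusted p under 0.01 gave 4 synthesis and 7 degradation genes, no filter 5 synthesis genes, each limma fit 7 degradation genes and library totals 6.

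With a library left out, the lists had for Activin against NC 5 to 9 eIF2, 1 to 3 sensor, 3 to 7 synthesis, 4 to 9 chaperone, 3 to 8 degradation, 2 to 3 p53 and 3 to 5 hypoxia genes called. Between Activin+HGF and Activin they had 0 to 3 eIF2, 1 to 3 sensor, 0 to 1 partner, 0 to 3 synthesis, 0 to 3 transporter, 1 to 4 other target, 0 to 4 chaperone, 0 to 2 degradation, 0 to 1 p53 and 3 to 4 hypoxia genes. For Activin+HGF against NC they had 6 to 8 eIF2, 4 to 6 synthesis, 4 to 6 transporter, 10 to 12 chaperone and 7 to 10 degradation genes.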
